A study of Homo sapiens with 6 samples.

Results

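The 10 interstitial collagen genes named for this comparison were COL1A1, COL1A2, COL3A1, COL5A1, COL5A2, COL8A1, COL10A1, COL12A1, COL14A1 and COL16A1, and 9 of the 10 were found among the 19198 genes with normalized counts; COL5A1 is not analysed here. They were followed in MCF10A, an established and non-tumorigenic human mammary epithelial line, which the sample labels describe as luminal ductal cells. Both groups were kept in medium with 5% horse serum and grown to 80% confluence. The 3 control samples also received 10 µg/ml insulin, 20 ng/ml EGF, 100 ng/ml cholera toxin and 0.5 µg/ml hydrocortisone, and these 4 supplements were left out for the 3 depleted samples. The comparison asks what removal of the growth factors does to transcripts of the cells, in a study of loss of the epithelial phenotype. Nothing in the sources used here says that the 3 samples of a group came from separate cultures, so the p-values measure the spread between these samples, which may be technical.

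Collagens are made of 3 chains wound into a triple helix, in which glycine returns at a fixed spacing of 3 residues. In the fibrillar collagens (COL1A1, COL1A2, COL3A1 and COL5A2 here) the helix is long and unbroken, and the molecules pack side by side into the fibrils of connective tissue. Type I collagen joins 2 chains from COL1A1 to 1 from COL1A2, type III is built from COL3A1 alone, and type V, from COL5A1 and COL5A2, sits inside type I fibrils and limits their diameter. The fibril-associated collagens with interrupted triple helices (COL12A1, COL14A1 and COL16A1) do not form fibrils but bind to their surface. COL8A1 and COL10A1 belong to neither class: they encode short-chain collagens that assemble into networks, type VIII in vessel walls and the basement membrane of the cornea, and type X in the growth plate cartilage. In the mammary gland, interstitial collagens are mainly a product of the stroma, while the epithelium rests on a basement membrane of type IV collagen.

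The classes can be read from the coding sequence of each gene's canonical transcript (Gencode v44 on hg38). A glycine codon is GGN, and a helix appears as GGN at each 3rd codon. The longest unbroken run held 338 such triplets in COL1A1, 339 in COL1A2, 343 in COL3A1 and 339 in COL5A2. It held 57 in COL16A1, 32 in COL12A1 and 32 in COL14A1, whose runs of at least 5 triplets covered 8.23% of the 3063 residues of COL12A1 and 14% of the 1796 residues of COL14A1. COL8A1 and COL10A1 were alike in this measure, each with 61 triplets in the longest run and 154 triplets in 9 runs. The fibrillar genes spread the helix over many small exons, with 21 coding exons of exactly 54 bases in COL1A1 and 24 each in COL1A2, COL3A1 and COL5A2, whereas COL8A1 and COL10A1 had 2 coding exons each and none of that length. To show the repeat that defines the family, the first 27 bases of the longest run that lie within 1 exon are given in the direction of the transcript, with the glycine codons in capitals.
COL1A1 (chr17:50198179-50198205, minus strand, exon 7 of 51): GGTccctctGGTcctcgtGGTctccct
COL1A2 (chr7:94404556-94404582, plus strand, exon 7 of 52): GGCttaatgGGAcctagaGGCccacct
COL3A1 (chr2:188987113-188987139, plus strand, exon 5 of 51): GGActcgcaGGCtatcctGGAccagct
COL5A2 (chr2:189086744-189086770, minus strand, exon 9 of 54): GGTcctgttGGCccaaggGGAccacag
COL12A1 (chr6:75102026-75102052, minus strand, exon 57 of 66): GGTcgccaaGGGatgaaaGGTgatgct
COL16A1 (chr1:31672461-31672487, minus strand, exon 47 of 71): GGAgatcctGGCtgtgttGGGagccca
COL8A1 (chr3:99794952-99794978, plus strand, exon 4 of 4): GGGaaaccaGGCttcccaGGAcccaaa
COL10A1 (chr6:116121195-116121221, minus strand, exon 3 of 3): GGGaaaccaGGCttgccaGGCctgaag

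Depth came to between 7472418 and 28672630 reads on genes per sample, with depleted replicate 3 the shallowest. The deposited values are normalized counts, reads divided by the sample's DESeq2 size factor and not by gene length, and 3 reads correspond to 1.76 to 6.71 normalized counts. This floor takes in only the error of counting, since the reads carry no molecular identifiers. Markers of both kinds of mammary epithelium were present in both groups, not luminal ones alone. The summed level of 6 basal markers was 49597 to 69171 normalized counts with growth factors and 42262 to 157210 without. That of 7 luminal markers was 6426 to 17512 and 17393 to 31625. The most abundant keratins weigh most in these sums, with KRT17 at 123480 and KRT8 at 19305 normalized counts in depleted replicate 3. Among the 6 basal markers 4 changed downward and 2 upward. TP63 was called lower (log2 fold change -4.18, adjusted p = 0.027 by limma). KRT5 (-2.04), LAMB3 (-0.43), ITGB4 (-0.20), KRT17 (2.44) and KRT14 (2.69) were not called. Among the 7 luminal markers 5 changed downward and 2 upward. KRT19 was called lower (-2.31, adjusted p = 0.0196 by limma). ESR1 (-2.99), EPCAM (-0.98), FOXA1 (-0.72), GATA3 (-0.28), KRT18 (1.17) and KRT8 (1.10) were not called. ESR1 and FOXA1 were lower in every depleted sample than in any control. The calls of TP63 and KRT19 each held in 3 of the 6 fits with a sample left out. Depleted replicate 1 stood apart from the other depleted samples, with 562 normalized counts of the basal keratin KRT5 against 10908 and 14997, and with 6491 of RGS5 against 188 and 219. Changes of the collagens are therefore also given without it.

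Of the 9 collagens, 6 rose without growth factors, namely COL1A1, COL1A2, COL3A1, COL10A1, COL12A1 and COL14A1, and none fell. COL5A2, COL8A1 and COL16A1 did not pass the test. A gene was called at an adjusted p under 0.05 in limma, over the 16988 genes whose mean normalized count reached 10, with a change of at least 2-fold. All 9 passed that filter. For comparison, 4.36% of all genes tested were called higher and 1.97% lower. The median log2 fold change of the 9 genes was 4.40, the value of COL1A1, and it is the same with COL10A1 at its lower bound. Over all genes tested the median was -0.03. In the same 6 genes the lowest depleted sample exceeded the highest control, an arrangement found for 13.5% of all genes. For COL10A1, with no control read, this was fixed in advance, since every gene of the table reached 3 reads in 3 or more samples. COL10A1 and COL14A1, with control means of 0 and 2.39 normalized counts, passed the filter on the mean through the depleted samples alone. On recovered whole reads edgeR called 6 of the 9 higher (4.02% of all genes) and DESeq2 called 7 (7.58% of all genes), adding COL16A1. Leaving out depleted replicate 1 or control replicate 1 also gave 7 calls, where 663 and 478 of all 16988 genes were called higher. Leaving out control replicate 2 or depleted replicate 2 gave 5 calls, where 500 and 313 of all genes were called higher.

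**Figure D1:**
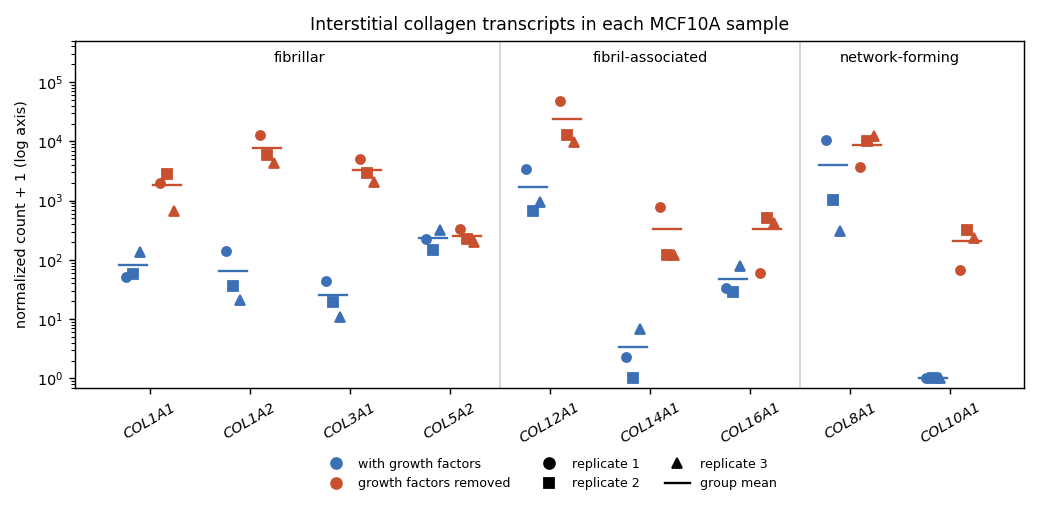
Normalized count plus 1 (log axis) of each collagen in the 3 samples with growth factors (blue) and the 3 samples without (red); symbols mark replicate numbers and lines the group means. The groups are separate for 6 genes and overlap for COL5A2, COL16A1 and COL8A1, and COL10A1 had no read in any control sample.

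The transcripts of type I and type III collagen rose without growth factors. COL1A2 (ENSG00000164692, chr7:94394895-94431227, plus strand), the α2 chain of type I collagen, was measured at 138, 35.7 and 19.7 normalized counts in the controls (replicates 1, 2 and 3) and at 13005, 5971 and 4248 in the depleted samples. The lowest depleted sample thus stood far above the highest control. The log2 fold change was 7.19 with a standard error of 0.70 (95% interval 5.60 to 8.78, adjusted p = 0.0012 by limma). COL3A1 (ENSG00000168542, chr2:188974373-189012746, plus strand), the single chain of type III collagen, stood at 43.9, 18.7 and 9.84 normalized counts in the controls and at 5001, 2882 and 2064 after depletion. Replicate 1 was the highest of its group on both sides and replicate 3 the lowest, as for COL1A2. Its log2 fold change was 7.19 with a standard error of 0.56 (95% interval 5.91 to 8.47, adjusted p = 0.000509 by limma). Both genes kept their calls whichever sample was omitted. The log2 fold change of COL1A2 then lay between 6.60 (without control replicate 3) and 7.97 (without control replicate 1), and that of COL3A1 between 6.70 and 7.73. Without depleted replicate 1 the values were 6.74 and 6.84.

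COL1A1 (ENSG00000108821, chr17:50184101-50201632, minus strand), the α1 chain of type I collagen, also rose, in another order of samples. Its normalized counts were 50.1, 57.4 and 136 in the controls and 1999.9, 2835 and 675 after depletion. The groups were separate, and replicate 3 was the highest control and the lowest depleted sample. The log2 fold change was 4.40 with a standard error of 0.59 (95% interval 3.05 to 5.75, adjusted p = 0.00435 by limma), and it lay between 3.97 and 5.00 with 1 sample left out, the upper value without depleted replicate 3. Without depleted replicate 1 it was 4.22. An antisense RNA gene shares 59 exonic bases with COL1A1, and the strand setting of the counting step is not given in the sources used here. COL5A2 (ENSG00000204262, chr2:189031898-189225312, minus strand), the α2 chain of type V collagen, lies end to end with COL3A1 at a distance of 19151 bases. It was measured at 221, 144 and 325 normalized counts in the controls and at 330, 225 and 197 after depletion. The groups overlapped, and the log2 fold change of 0.17 had a 95% interval of -0.76 to 1.09 (adjusted p = 0.874 by limma). The upper end of that interval is a 2.13-fold rise. Its sign turned without depleted replicate 1 (-0.05) and without control replicate 2 (-0.13).

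Among the fibril-associated collagens, COL12A1 and COL14A1 rose and COL16A1 did not pass the test. COL12A1 (ENSG00000111799, chr6:75084326-75206267, minus strand), whose protein binds type I fibrils, reached 47752, 12862 and 9791 normalized counts after depletion, against 3455, 658 and 943 in the controls. Even the highest control stayed below the lowest depleted sample. The log2 fold change was 3.82 with a standard error of 0.74 (95% interval 2.12 to 5.52, adjusted p = 0.0203 by limma). This call was lost without control replicate 2 (log2 fold change 3.33, adjusted p = 0.0703 by limma) and without depleted replicate 2 (4.07, adjusted p = 0.0565), while the value was 3.12 without depleted replicate 1 and 4.53 without control replicate 1. COL14A1 (ENSG00000187955), whose product binds fibrils through the proteoglycan decorin, was represented by 1, 0 and 6 reads in the controls, or 1.25, 0 and 5.90 normalized counts, and by 766, 122 and 121 normalized counts in the depleted samples. The groups were separate, and depleted replicate 1 was the highest. Its log2 fold change was 6.50, with a standard error of 0.96 (95% interval 4.31 to 8.68, adjusted p = 0.00626 by limma). It was 5.62 without depleted replicate 1, 5.84 without control replicate 2 and 7.23 without control replicate 3, and the call held whichever sample was omitted. The mean normalized count was 141-fold higher after depletion. Pooled reads, 1077 against 7, divided by the pooled size factors gave a ratio of 177 with a 95% counting interval of 85.5 to 441, where the exact binomial interval takes in only the error of counting. The log2 fold change was 4.29 with a pseudocount of 10 and 7.23 by edgeR.

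COL16A1 (ENSG00000084636, chr1:31652263-31704319, minus strand), a fibril-associated collagen with many short helical runs, was measured at 32.6, 27.5 and 78.7 normalized counts in the controls and at 58.6, 508 and 420 after depletion. Depleted replicates 2 and 3 lay above all controls, but replicate 1 fell inside the control range. In log2 terms it changed by 2.46 (95% interval 0.56 to 4.36, adjusted p = 0.135 by limma and 0.00226 by DESeq2). Without depleted replicate 1 it was 3.45 (adjusted p = 0.0155 by limma). An antisense RNA gene shares 117 exonic bases with COL16A1.

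Of the network-forming pair COL10A1 rose and COL8A1 did not pass the test. COL10A1 (ENSG00000123500, chr6:116118909-116158747, minus strand) had no read in any control sample, which allows up to 3 reads in each. It had 65.9, 319 and 230 normalized counts (72, 487 and 103 reads) in the depleted samples. The mean of the depleted samples was at least 72.7-fold higher than the mean control floor of 3 reads per library (adjusted p = 0.00123 by limma). The call held whichever sample was omitted, depleted replicate 1 included. COL10A1 lies within NT5DC1 on the opposite strand without shared exonic bases, and NT5DC1 had a log2 fold change of -0.22 (adjusted p = 0.712 by limma). COL8A1 (ENSG00000144810, chr3:99638475-99799226, plus strand) was already abundant in control replicate 1, with 10487, 1008 and 312 normalized counts in the controls and 3735, 10171 and 12199 in the depleted samples. The highest control exceeded 2 of the 3 depleted samples. The log2 fold change of 2.38 (95% interval -0.17 to 4.93) did not pass the test (adjusted p = 0.288 by limma), and it was 3.78 without control replicate 1 (adjusted p = 0.0291 by limma) and 1.25 without control replicate 3. Without depleted replicate 1 it was 2.90. On recovered reads edgeR gave a log2 fold change of 1.20 (adjusted p = 0.604) and DESeq2 1.17 (adjusted p = 0.689).

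**Figure D2:**
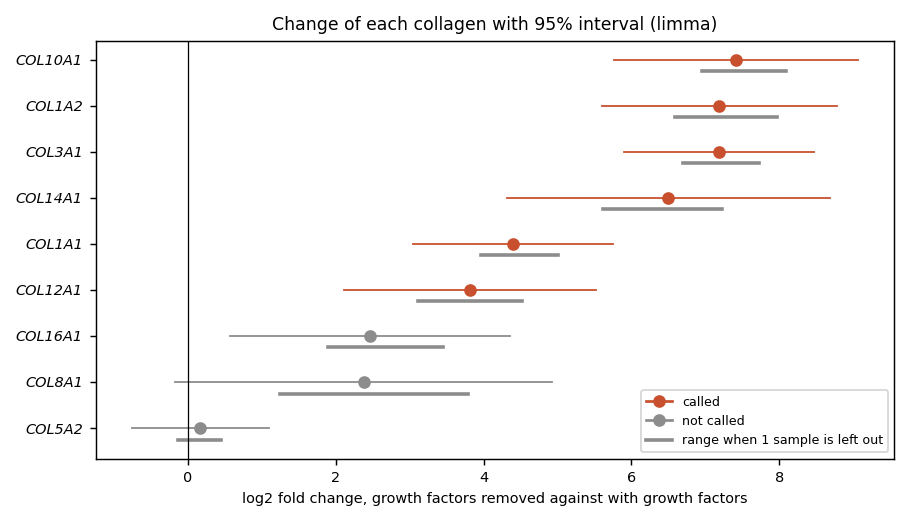
Log2 fold change of each collagen, growth factors removed against with growth factors (points), with the 95% interval from limma (thin lines; red called, grey not called) and the range over the 6 fits that leave out 1 sample (thick grey lines). The fitted values of the 6 called genes lie between 3.82 and 7.41 (that of COL10A1, with 0 reads in the controls, depends on the pseudocount), and only COL5A2 has a leave-one-out range that crosses 0.

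COL10A1 and COL12A1 rose and have a start in the RefSeq promoter table (GRCh38.p14; 250 bases before to 50 after the start), as does COL16A1; COL1A1, COL1A2, COL3A1, COL5A2, COL8A1 and COL14A1 do not. The 4 motifs searched on both strands were the TATA box TATAAA, the CCAAT box CCAAT, the GC box GGGCGG, and the RUNX core TGTGGT or TGCGGT, since RUNX1 is the subject of the study. They occur in 11.5%, 34.6%, 45% and 19.6% of the 35116 promoters of the table. No RUNX core was found in these windows. COL10A1 has 3 annotated starts, of which the proximal one holds TATAAA at position -31 and CCAAT at -122, the next holds TATAAA at -30 and -22 and CCAAT at -154, and the most distal one holds no match. The window of COL12A1 has GC boxes on the opposite strand at -218 and 19, and that of COL16A1 has them on its own strand at -200 and -171. These matches are descriptions of the sequence, and the RNA-Seq values do not say which start was used. The windows of the first 2 COL10A1 starts and of COL12A1 are printed to show this contrast, on the minus strand, with matches in capitals.
COL10A1 proximal start (chr6:116126083-116126382): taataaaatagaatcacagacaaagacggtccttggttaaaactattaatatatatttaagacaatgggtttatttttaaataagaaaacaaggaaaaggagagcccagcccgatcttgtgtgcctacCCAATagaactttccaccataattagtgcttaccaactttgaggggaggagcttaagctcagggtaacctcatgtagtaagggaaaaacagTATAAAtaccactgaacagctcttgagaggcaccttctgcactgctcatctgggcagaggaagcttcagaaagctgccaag
COL10A1 upstream start (chr6:116158723-116159022): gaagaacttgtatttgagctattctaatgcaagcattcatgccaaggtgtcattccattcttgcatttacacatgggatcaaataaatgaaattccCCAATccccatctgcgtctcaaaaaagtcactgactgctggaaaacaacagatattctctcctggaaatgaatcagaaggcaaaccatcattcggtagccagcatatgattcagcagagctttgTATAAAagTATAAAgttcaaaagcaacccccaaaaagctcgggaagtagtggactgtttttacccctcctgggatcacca
COL12A1 (chr6:75206004-75206303): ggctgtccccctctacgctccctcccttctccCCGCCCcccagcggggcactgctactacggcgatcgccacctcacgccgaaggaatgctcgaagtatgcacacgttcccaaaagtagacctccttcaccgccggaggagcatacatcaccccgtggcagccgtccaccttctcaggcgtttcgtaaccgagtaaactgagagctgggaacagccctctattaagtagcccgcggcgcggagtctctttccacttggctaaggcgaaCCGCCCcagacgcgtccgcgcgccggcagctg

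Levels of different genes were compared as normalized counts per kilobase of merged exons. With growth factors COL8A1 had the highest mean (418 ± 604, SD, n = 3), followed by COL12A1 (89.4 ± 81.6) and COL5A2 (31.4 ± 12.4). COL1A1 (9.0 ± 5.27), COL1A2 (5.96 ± 5.93), COL16A1 (5.00 ± 3.05) and COL3A1 (3.57 ± 2.61) came next, with COL14A1 at 0.234 ± 0.305 and COL10A1 at 0. Only COL5A2 over COL1A1 and COL3A1 over COL14A1 were neighbours in this order whose samples did not overlap, and the first of these pairs did overlap when the length of the canonical transcript was used. In the depleted samples COL12A1 led (1244 ± 1118), before COL8A1 (925 ± 470), COL1A2 (716 ± 429), COL3A1 (491 ± 224) and COL1A1 (204 ± 121). COL10A1 (53.6 ± 33.6), COL16A1 (35.6 ± 25.8), COL5A2 (34.3 ± 9.63) and COL14A1 (33.0 ± 36.5) were close together. The ranges of all neighbours in the depleted order overlapped, except those of COL1A1 and COL10A1 when the canonical length was used. COL5A2, the leading fibrillar chain of the controls by this measure, was thus the lowest of the fibrillar chains after depletion.

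The share of all reads on genes that came from the 9 collagens was 0.0793%, 0.0116% and 0.0121% in the controls and 0.466%, 0.224% and 0.179% in the depleted samples. In control replicate 1, the highest control, COL8A1 gave 72.7% of the collagen reads. Type I and type III transcripts together made up 1.61%, 5.74% and 9.03% of the collagen reads with growth factors and 27.5%, 32.6% and 23.3% without. COL12A1 contributed 65.7%, 35.8% and 32.7% of the collagen reads of the depleted samples, and COL8A1 5.14%, 28.3% and 40.7%. These shares count reads and so also reflect transcript length.

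**Figure D3:**
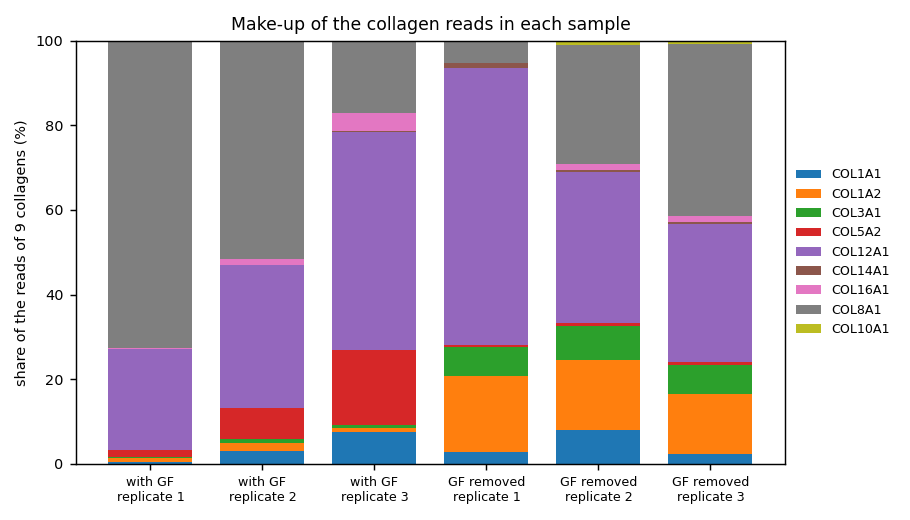
Share of each collagen in the reads of the 9 collagens (%), for the 3 samples with growth factors (GF) and the 3 without. COL8A1 and COL12A1 reads make up most of every bar, and the type I and type III share (COL1A1, COL1A2 and COL3A1) is 23.3% to 32.6% in the depleted samples against at most 9.03% in the controls.

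Ratios within a sample do not depend on the size factor, and 3 were formed from normalized counts per kilobase of merged exons. COL1A1 to COL1A2, the chains of type I collagen, gave 0.437, 1.93 and 8.28 with growth factors and 0.185, 0.570 and 0.191 without. The depleted samples had the smaller ratio on average (difference of -2.81 on the log2 scale), but control replicate 1 lay inside their range (exact two-sided permutation p = 0.2, 0.3 after adjustment over the 3 ratios). The control ratios rest on as few as 20 reads of COL1A2. COL3A1 to COL1A1 was 1.17, 0.435 and 0.0966 with growth factors and 3.33, 1.36 and 4.07 without. Every depleted sample was higher, by 2.85 on average on the log2 scale, and the exact permutation p of 0.1 (adjusted 0.3) is the smallest that 3 against 3 samples allow. COL3A1 to COL1A2, a ratio chosen after the values were seen, was 0.509, 0.839 and 0.800 against 0.615, 0.772 and 0.777. The groups overlapped, with a log2 difference of 0.04 (SD 0.40 with and 0.19 without growth factors, n = 3 each, exact permutation p = 1). By merged-exon length the ratio of COL3A1 to COL1A2 lay between 0.509 and 0.839 in all 6 samples. A test of 3 against 3 samples cannot show that it is constant. Both ratios with COL3A1 rest on as few as 10 of its reads, in control replicate 3, where COL1A2 had 20. The size of a ratio depends on the length used, while the log2 difference between groups does not. With the canonical transcript length, COL3A1 to COL1A2 lay between 0.294 and 0.485. COL1A1 to COL1A2 was then 0.132, 0.407 and 0.136 in the depleted samples.

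The 3 depleted samples split the collagens in opposite ways. Replicate 1 had the highest level of COL1A2, COL3A1, COL5A2, COL12A1 and COL14A1, with COL12A1 4.22-fold and COL14A1 6.31-fold above the mean of replicates 2 and 3. It had the lowest level of COL8A1, COL10A1 and COL16A1, for which the mean of replicates 2 and 3 was 2.99-fold, 4.17-fold and 7.93-fold higher. COL1A1 was highest in replicate 2 and lowest in replicate 3. With 1 sample on one side these differences have no test. Other genes moved with the same split: the pericyte and fibroblast marker PDGFRB had 3322 normalized counts in replicate 1 against 349 and 447, and the basement membrane collagen COL4A1 had 1049 against 20670 and 18862.

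**Figure D4:**
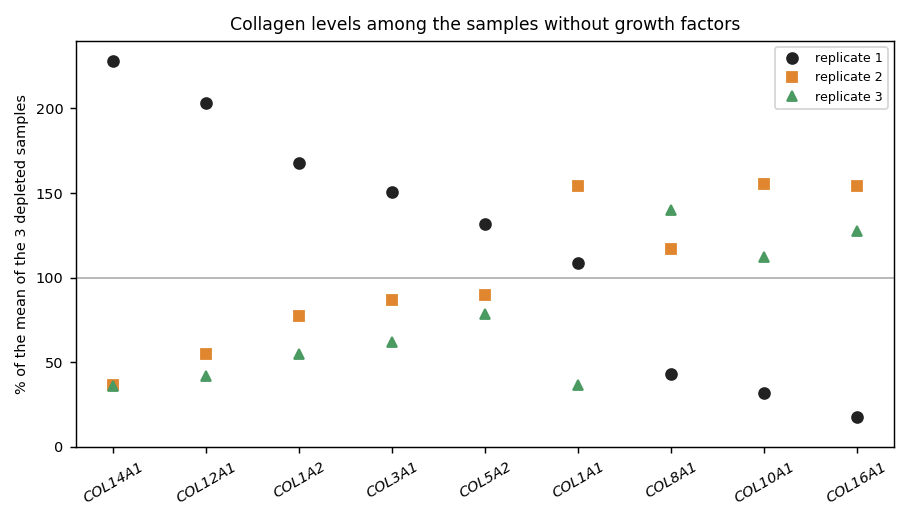
Level of each collagen in the 3 depleted samples as a percentage of their mean, ordered by replicate 1. Replicate 1 ranges from 228% of the mean for COL14A1 to 17.8% for COL16A1, and replicates 2 and 3 lie on the same side of it for every gene except COL1A1.

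Markers of other cell types were read beside the collagens. The 7 fibroblast markers in the table summed to 2112 to 2956 normalized counts with growth factors and 11034 to 23102 without. Of the 6 tested, PDGFRA, PDGFRB and LUM rose, and PDGFRA, THY1 and LUM were at or under 3 reads in every control sample. PDGFRA, PDGFRB and LUM passed the filter on the mean through the depleted samples alone. Of the fibroblast markers, 3 also stand in the lists of fibril-binding proteins and collagenases. THY1 stayed at 2.75 to 6.71 normalized counts after depletion. The 4 smooth muscle and pericyte markers summed to 232 to 354 and 4338 to 8520, with ACTA2 and RGS5 called. ACTA2 kept its call in 6 of 6 fits with a sample left out and RGS5 (adjusted p = 0.0494 by limma) in 1 of 6. The 4 endothelial markers summed to 167 to 1787 and 265 to 1610, of which CDH5 was called higher (log2 fold change 3.37, adjusted p = 0.0282 by limma) in the full data and in 2 of 6 fits with a sample left out. CDH5 also passed the filter on the mean through the depleted samples alone. KDR (-3.83) and PECAM1 (0.09) were not called. The leukocyte marker PTPRC had 0 to 1.97 and 10.1 to 13.8 normalized counts. SOX9 and MATN3, the chondrocyte markers in the table, summed to 1827 to 4159 and 1278 to 2181, and neither was called. The part of these markers in the collagen result was not tested. In bulk RNA a change in the number of cells of a type and a change in RNA per cell cannot be told apart.

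Of the 20 other collagen genes in the table, 15 were tested, of which 4 rose and 1 fell, with a median log2 fold change of 1.74. Of the called genes, COL4A3 and COL8A2 passed the filter on the mean through the depleted samples alone. Their control means were 7.50 and 1.51 normalized counts. COL4A4 and COL4A3, chains of the specialised type IV network, rose with log2 fold changes of 4.98 and 4.40 (adjusted p = 0.0051 and 0.0108 by limma). COL8A2, the second chain of type VIII collagen, rose from 0, 0.586 and 3.93 normalized counts to 45.8, 31.5 and 22.4 (log2 fold change 4.05, adjusted p = 0.0203 by limma). COL18A1, a basement membrane collagen that carries endostatin, rose by 3.88 on the log2 scale (adjusted p = 0.00769 by limma). COL4A6 fell, from 1427, 1610 and 3489 normalized counts to 574, 127 and 93.9 (log2 fold change -3.39, adjusted p = 0.0212 by limma). COL17A1, the transmembrane collagen of hemidesmosomes, was at 9095, 5935 and 13591 with growth factors and 294, 2487 and 2129 without, separate groups that did not pass the test (adjusted p = 0.0595 by limma). Without depleted replicate 1 the calls were 5 higher and 2 lower. Without control replicate 1 or 2 or depleted replicate 3 they were 3, and without depleted replicate 2 they were 2, all of them higher. COL8A2 kept its call in 1 of these 6 fits, COL4A6 in 2 and COL4A3 in 5.

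**Figure D5:**
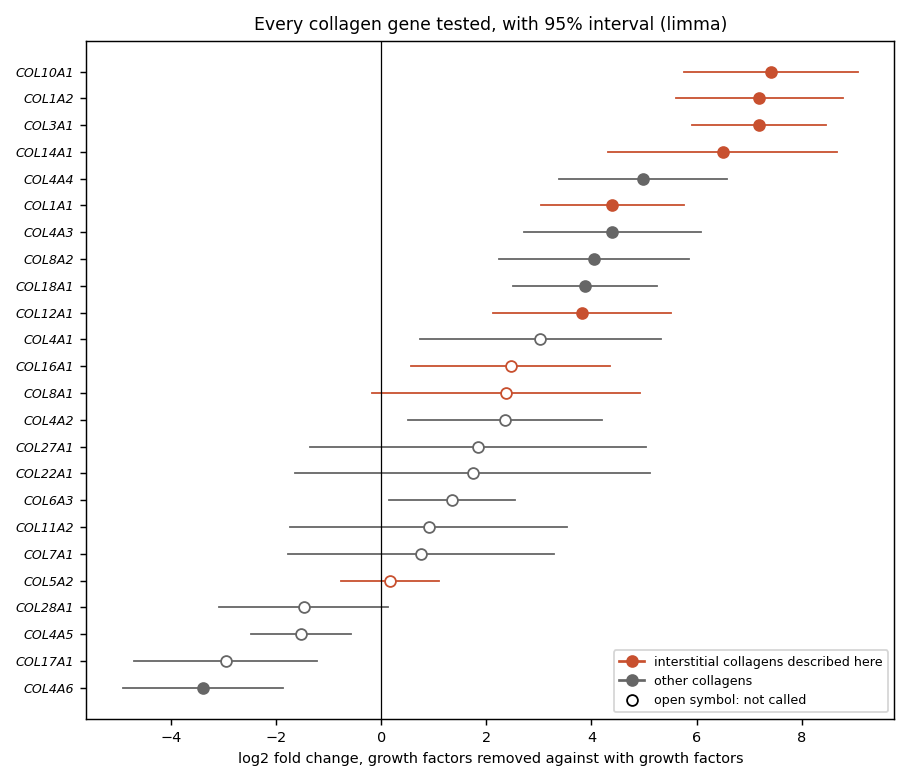
Log2 fold change, growth factors removed against with growth factors, of the 24 collagen genes tested, with 95% intervals from limma; red marks the interstitial collagens described here, grey the other collagens, and open symbols genes that were not called. COL10A1, COL1A2, COL3A1 and COL14A1 have the 4 highest values, and COL4A6 is the only gene called lower by limma. The value and rank of COL10A1, with 0 reads in the controls, depend on the pseudocount. With a pseudocount of 10 its log2 fold change was 4.18, under that of COL1A1 at 4.23. COL4A6 was not called by edgeR (adjusted p = 0.0522).

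Of 28 genes tested for modification and cross-linking of procollagen, 4 rose and 2 fell, and their median log2 fold change was 0.34. P3H3, a member of the prolyl 3-hydroxylase family, had 2.51, 1.17 and 1.97 normalized counts in the controls and 163, 49.8 and 62.6 after depletion, with a pooled-read ratio of 54 with a 95% counting interval of 24.5 to 148 and a ratio of mean normalized counts of 48.8 (adjusted p = 0.00451 by limma). P3H3 passed the filter on the mean through the depleted samples alone. LOXL1, a lysyl oxidase of the cross-linking step, rose from 103, 149 and 127 normalized counts to 1925, 1599 and 1612 (log2 fold change 3.76, adjusted p = 0.000469 by limma). The related P3H4 and P3H1 rose by 1.86 and 1.46 on the log2 scale (adjusted p = 0.0266 and 0.025 by limma). Each kept its call in 1 of 6 fits with a sample left out. P3H2, of the same family and named after its values were seen, was lower in every depleted sample. It had 6415, 2514 and 4201 normalized counts in the controls and 806, 2211 and 2323 after depletion. Its log2 fold change of -1.34 was not called (adjusted p = 0.172 by limma). PCOLCE2, an enhancer of the removal of the C-propeptide, and PLOD3, a lysyl hydroxylase, fell (log2 fold changes of -2.21 and -1.38, adjusted p = 0.0451 and 0.0255 by limma). Without any 1 sample other than control replicate 3 these 6 calls became 2 or 3, all of them higher. A further 3 genes, named after their values were seen, were well expressed in both groups and not called: P4HB, the β subunit of prolyl 4-hydroxylase, at 6419 to 12254 normalized counts with growth factors and 8210 to 8984 without, the collagen chaperone SERPINH1 (log2 fold change 0.82, adjusted p = 0.267 by limma) and LOX (-0.61, adjusted p = 0.592).

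Of the 12 genes tested for proteoglycans and glycoproteins that bind collagen fibrils, 8 rose, none fell, and the median log2 fold change was 3.62. Of the called genes, LUM, THBS2, BGN and SPARC passed the filter on the mean through the depleted samples alone. Their control means were 1.58, 1.25, 6.03 and 5.85 normalized counts. LUM, a small leucine-rich proteoglycan that regulates fibril spacing, had 4 reads in all controls together and 5491, 2086 and 1981 normalized counts after depletion, with a pooled-read ratio of 2892 with a 95% counting interval of 1129 to 10610 and a ratio of mean normalized counts of 2015 (adjusted p = 0.000324 by limma). BGN, of the same family, rose from 0, 2.34 and 15.7 normalized counts to 5075, 799 and 595 (log2 fold change 8.46, adjusted p = 0.00404 by limma). POSTN, which links fibrils to other matrix proteins, rose by 5.94 on the log2 scale (adjusted p = 0.000563 by limma), and THBS2 had 3.76, 0 and 0 normalized counts against 94.3, 82.0 and 71.6, with a pooled-read ratio of 99.6 with a 95% counting interval of 33.7 to 486 and a ratio of mean normalized counts of 65.9 (adjusted p = 0.00455 by limma). SPARC, FN1, TNC and FBLN1 were the other called genes, and the count was 6 to 8 with 1 sample left out.

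Of 8 collagen receptors tested, ITGA11, an integrin subunit for fibrillar collagen, and MRC2, an endocytic collagen receptor, rose. ITGA11 had 2 reads in all controls together, at most 1.97 normalized counts in a control and 794, 159 and 123 after depletion, with a pooled-read ratio of 670 with a 95% counting interval of 185 to 5538 and a ratio of mean normalized counts of 547 (adjusted p = 0.00217 by limma), and MRC2 rose by 3.85 on the log2 scale (adjusted p = 0.0109 by limma). ITGA11 passed the filter on the mean through the depleted samples alone. Of 6 collagenases and gelatinases tested, MMP2 rose from 133, 102 and 71.8 normalized counts to 5181, 12237 and 11625 (log2 fold change 6.50, adjusted p = 0.000324 by limma). MMP1, the interstitial collagenase, had no read in the controls and 6.41, 101 and 93.9 normalized counts after depletion, with 7 reads in depleted replicate 1. The mean of the depleted samples was at least 23.8-fold above the mean control floor of 3 reads (adjusted p = 0.0214 by limma). With no control read, the separation of its groups was fixed in advance, and it passed the filter through the depleted samples alone. Its call held in 2 of 6 fits with a sample left out. The count of 2 collagenases became 1 without control replicate 1 or 2 or depleted replicate 2 or 3, and 4 without depleted replicate 1.

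The genes whose log2 values ran most closely with the mean of COL1A1 and COL1A2 over the 6 samples, among the 11679 genes whose mean reached 100 normalized counts, were RASSF8 (Pearson r = 0.997), VCAN (0.996), CHIC2 (0.995), ZHX2 (0.992) and EEIG2 (0.992). The 6 points fall into their 2 groups, so each r reflects mainly the step between groups, and it is given as a description. VCAN, a large proteoglycan of the interstitial matrix, rose from 303, 112 and 139 normalized counts to 58293, 29574 and 21262 (log2 fold change 7.62, adjusted p = 0.000324 by limma). CHIC2 had 259 to 265 normalized counts against 452 to 539 and did not pass the test (log2 fold change 0.94, adjusted p = 0.0886 by limma). Among the collagens themselves r with the type I mean was 0.990 for COL3A1, 0.952 for COL14A1, 0.951 for COL10A1, 0.939 for COL12A1, 0.673 for COL16A1, 0.613 for COL8A1 and 0.289 for COL5A2.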

How the data were processed

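Total RNA of 6 MCF10A samples, 3 with growth factors and 3 without, was depleted of ribosomal RNA by the authors, made into strand-specific libraries and sequenced as single-end reads of 100 bases. Per the methods and the submitters' processing notes, reads were trimmed with cutadapt 1.6, mapped to hg38 with TopHat2, counted with HTSeq 0.6 on Gencode v22 and divided by size factors from DESeq2 1.8.1. The deposited signal values are these normalized counts. Every value was a whole multiple of 1 read (100.0% within 0.01 read), so whole reads were recovered for the count tests.

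The main test was limma 3.58.1 in R 4.3.3 on log2 of the normalized count plus 1 (lmFit, then eBayes using the mean-variance trend). It covered 16988 of the 19198 genes, those with a mean of 10 or more, with Benjamini-Hochberg adjustment over all of them. Fold changes of low genes on this scale can differ from those of a count test in either direction. The log2 fold change of COL14A1 was 6.50 by limma and 7.23 by edgeR. That of COL27A1, with low and uneven counts, was 1.83 by limma and -0.14 by edgeR. The main test was tested on simulated data first. Alternatives were pseudocounts of 0.5 and 10, no filter, a mean of at least 50, equal totals, TMM, quantile normalization, no trend, edgeR 4.0.16 and DESeq2 1.42.0 on the recovered reads, the replicate number as a block, and each sample left out. Regression on transcript length and GC content, alone and with the block, was added after seeing the data. Gene models came from Gencode v44, which names 18913 of the 19198 identifiers, and promoters from RefSeq. Ratios were tested by exact permutation. Tables were made with Python 3.11.15.

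The collagens, the gene lists and the tests were chosen with earlier results of these data known. From each list the called genes were named by size of change, at most 4 in each direction; markers were checked as levels. Every gene of the table reached 3 reads in 3 or more samples. COL5A1 is not analysed here.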

Additional observations from a re-analysis of the deposited data

How the results depend on the processing

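The 6 called collagens had the same direction in each alternative. Besides the values given above for COL12A1, COL8A1 and COL16A1 (log2 fold changes of 3.33 and 4.07 for COL12A1 where its call was lost, 3.78 for COL8A1 without control replicate 1, and 3.45 without depleted replicate 1 or 2.83 by DESeq2 for COL16A1, where a call was gained), no other call of a collagen moved. COL5A2 turned to -0.13 and -0.05 when 1 sample was left out, and to -0.10 with the length and GC correction, alone or with the replicate block. With 1 sample left out the log2 fold changes ranged from 1.25 to 3.78 for COL8A1, 3.12 to 4.53 for COL12A1, 1.90 to 3.45 for COL16A1 and -0.13 to 0.45 for COL5A2. The number of collagens called was 5 to 7. Of all genes 453 (without depleted replicate 2) to 2474 (without control replicate 3) were called, beside 1076 in the main fit. The count was 2 to 7 for genes of procollagen modification and cross-linking, 2 to 7 for other collagens and 1 to 4 for collagenases. The share of calls that were higher was 68.9%, and 55.5% without control replicate 3. DESeq2 called 2112 genes (60.9% higher), 6 receptors, 4 collagenases and 9 other collagens, and a mean of at least 50 left 1 collagenase. The labels do not say whether the replicate numbers pair the samples. Correlations of same-numbered deviations were -0.07, -0.28 and -0.32. They cannot decide this, since the 3 deviations from each group mean sum to 0. With the replicate block 967 genes, the same number of 6 collagens and 2 genes of procollagen modification and cross-linking were called. KRT19 lost its call there (adjusted p = 0.0529 by limma). With the length and GC correction beside the block 666 genes and 2 genes of procollagen modification and cross-linking were called. The correction alone called 1299 genes, 59.2% higher. The log2 difference of COL3A1 to COL1A2 was -0.0308 with the correction and -0.19 to 0.17 with 1 sample left out, turning sign without control replicate 1 (-0.19) and depleted replicates 2 or 3 (-0.02 each). Differences of COL1A1 to COL1A2 and COL3A1 to COL1A1 ranged from -3.88 to -1.76 and from 1.89 to 3.69. The causes of these shifts were not tested. Ratios with COL5A1 were planned and not run. Counts in the controls, at most 6 reads for COL14A1 and 0 for COL10A1, limit the size of their changes.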
